A study of Rattus norvegicus with 6 samples.

Results

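The genes described here are the cadherins and the adhesion molecules outside the clustered protocadherin locus, measured by RNA-seq in the vestibular epithelium of the rat inner ear. They were taken by symbol alone: every gene whose symbol is Cdh, Cdhr, Pcdh, Cadm, Ncam, Clstn, Celsr or Fat followed by a number, without Cdh23 and Pcdh15, the 2 cadherins that form the tip links of hair cell (HC) stereocilia. The rule found 52 of the 32883 genes in the table. All 6 rats were adult male Long-Evans animals of no stated genotype. The 3 IDPN-4wk rats drank water holding 20 mM 3,3'-iminodipropionitrile (IDPN), an ototoxic nitrile, for 4 weeks, and the 3 Control rats drank plain water. Each library came from a single rat, from its 2 utricles and 6 cristae together, so the p-values below measure the spread between animals. The tissue was taken whole, with HCs, supporting cells, nerve, stroma and vessels in unknown proportions. In such bulk samples, fewer cells of a type and less RNA per cell cannot be told apart, and this holds for every level given below.

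Classical cadherins are single-pass membrane proteins that bind the same cadherin on the neighbouring cell through calcium-dependent extracellular repeats, and that reach the actin cytoskeleton through catenins on the inside. Type I members such as E-cadherin hold epithelial cells together at adherens junctions, whereas type II members are best known from nervous tissue, mesenchyme and vessels. Protocadherins, Fat and Celsr cadherins and calsyntenins share the repeats but differ inside the cell, and Cadm and Ncam proteins adhere through immunoglobulin domains that need no calcium. In the vestibular epithelium these proteins join HCs to supporting cells, set the common orientation of the hair bundles and are found at synapses and on glia.

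Of the 52 genes, 41 had enough counts to be tested. Cdh9, Cdh16, Cdh17 and Cdhr3 had 0 counts in every library, where a count of 0 allows up to 3 counts, or from 0.155 to 0.216 counts per 1e6 counts of the scaled library (CPM). The other 7, Cdh4, Cdh8, Cdh10, Cdh12, Cdh26, Cdhr5 and Pcdh8, had at most 16 counts in any library and were removed by the filter on low counts. A gene was called downregulated or upregulated at an adjusted p (Padj) under 0.05 together with a fold change over 1.5, both from the quasi-likelihood test of edgeR across all 14352 genes tested. By this rule 11 members were downregulated and 2 were upregulated in IDPN-4wk rats. These are 26.8% and 4.88% of the members tested, beside 6.62% of all genes tested that were downregulated and 3.09% that were upregulated. The 26.8% includes Cdh13 and Cadm2, which passed the filter on low counts through the Control libraries alone. Downregulated were the type II cadherins Cdh18, Cdh19, Cdh20 and Cdh22, T-cadherin (Cdh13), Pcdh20, Celsr1, Clstn3, Cadm2, Ncam1 and Ncam2. Upregulated were the cadherin-related genes Cdhr1 and Cdhr2.

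For 4 of these genes the sequence before the transcription start is shown, since cadherins that changed in the same direction had start regions of unlike composition. They are the downregulated classical cadherins with the most counts, Cdh18 and Cdh19, and the upregulated pair Cdhr1 and Cdhr2. Each run is the 250 bases before the gene's start in RefSeq on build GRCr8, read 5′ to 3′ on the gene's own strand. Capitals mark E-boxes, the motif CANNTG (N is any base), a pattern that reads the same on both strands. Snail, Zeb and helix-loop-helix factors each bind only some of its forms, so a marked stretch names no factor.
Cdh18 (chr2:75075345-75075594, plus strand): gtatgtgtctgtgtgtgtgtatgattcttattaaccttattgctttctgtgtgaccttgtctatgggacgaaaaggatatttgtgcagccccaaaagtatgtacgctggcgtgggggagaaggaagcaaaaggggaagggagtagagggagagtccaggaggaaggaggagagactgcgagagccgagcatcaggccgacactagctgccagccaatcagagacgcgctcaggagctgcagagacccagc
Cdh19 (chr13:28533754-28534003, minus strand): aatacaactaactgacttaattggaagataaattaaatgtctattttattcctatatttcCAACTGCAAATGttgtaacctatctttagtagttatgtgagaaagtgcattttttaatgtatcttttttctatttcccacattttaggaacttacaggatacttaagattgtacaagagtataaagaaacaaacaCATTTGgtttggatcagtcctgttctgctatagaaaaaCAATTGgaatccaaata
Cdhr1 (chr16:12883580-12883829, minus strand): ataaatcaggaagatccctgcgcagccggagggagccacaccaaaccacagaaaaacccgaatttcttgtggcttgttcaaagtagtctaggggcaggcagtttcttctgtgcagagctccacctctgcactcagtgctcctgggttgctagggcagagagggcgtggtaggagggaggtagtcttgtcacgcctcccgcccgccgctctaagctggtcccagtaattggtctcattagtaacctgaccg
Cdhr2 (chr17:9917699-9917948, minus strand): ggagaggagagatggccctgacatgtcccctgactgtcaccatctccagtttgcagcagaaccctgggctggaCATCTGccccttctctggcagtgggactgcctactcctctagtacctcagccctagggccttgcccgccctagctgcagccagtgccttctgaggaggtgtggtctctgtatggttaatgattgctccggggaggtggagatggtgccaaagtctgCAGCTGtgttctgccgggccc
Cdh18 held 0 E-boxes and 8 CpG dinucleotides in this window, while Cdh19 held 4 E-boxes and 0 CpG. Cdhr1 held 0 E-boxes and 9 CpG, and Cdhr2 held 2 E-boxes and 3 CpG. At least 1 such window was found in RefSeq for 38 of the 52 members, 39 windows in all. An E-box was found in 46.2% of the members' windows and in 65.5% of all 33469 windows of the same length, and the median number of CpG was 10 in the members and 5 over all windows. Of the 8 downregulated members with a window, 2 held an E-box, as did 1 of the 2 upregulated members. A match of these letters is a description of the window, not a binding site.

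The type II classical cadherins made up 4 of the 11 downregulated members. Of 13 in the table, 9 were tested, 4 were downregulated, none was upregulated, and the median of their log2-Fold changes was -0.42, beside 0.02 over all genes tested. Cdh18 is a type II cadherin known mainly from the nervous system. The paper lists it, from the literature, as selective for HCs over supporting cells. Cdh18 was at 18.1, 18.0 and 16.8 CPM in the Control libraries and at 2.301, 1.496 and 5.54 CPM in the IDPN-4wk libraries. The lowest Control library was thus above the highest IDPN-4wk library, and replicate 3 of the IDPN-4wk group lay above the other two. Its log2-Fold change was -2.52 ± 0.35 (SE, n = 3 per group) with Padj = 7.64e-04 by edgeR. Without IDPN-4wk replicate 3 the log2-Fold change was -3.25. Its start region, printed above, held no E-box. Cdh12, the next coding gene beside Cdh18 in the RefSeq order, had at most 1 count in any library.

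Cdh19, which is known from neural crest derivatives and the Schwann cell lineage, was at 39.8, 34.1 and 42.6 CPM in Control and at 12.5, 9.54 and 16.0 CPM in IDPN-4wk libraries. The IDPN-4wk mean was 32.7% of the Control mean, with no overlap between groups, and the log2-Fold change was -1.62 ± 0.17 (SE, n = 3 per group, Padj = 1.54e-04). The change held in each of the 14 alternative analyses, as it did for Cdh18 and Ncam1. Cdh7, a type II cadherin with no coding gene between it and Cdh19 in the RefSeq order, was at means of 12.0 and 10.3 CPM in the Control and IDPN-4wk rats and did not pass (log2-Fold change -0.23, Padj = 0.393). Markers of Schwann cells, where Cdh19 is known to be expressed, were read beside it. Of 7 Schwann cell markers tested 6 had negative values, with a median of -0.55 on the log2 scale. The 2 downregulated were the myelin genes Ncmap (-0.68) and Pmp22 (-0.59, just past the fold threshold). The summed level of the list was from 4915 to 5875 CPM in the Control and from 2992 to 4542 CPM in the IDPN-4wk libraries, without overlap, at 71.0% of the Control mean. Mbp, the myelin basic protein and the most counted of the list, was at -0.57 (Padj = 0.0366), under the fold threshold. Sox10, a transcription factor of the lineage and the only one of the 7 with a positive value, was at 0.19 (Padj = 0.113). The part of glial cell number in the Cdh19 result was not tested.

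Cdh20 and Cdh22, type II cadherins described from brain, were present at low levels. Cdh20 was at 4.46, 4.61 and 3.75 CPM in Control and at 1.01, 1.496 and 2.25 CPM in IDPN-4wk libraries (log2-Fold change -1.42 ± 0.33, SE, Padj = 0.0124). Cdh22 was at 4.71, 5.45 and 4.601 CPM in Control and at 1.80, 1.86 and 2.19 CPM in IDPN-4wk libraries (log2-Fold change -1.33 ± 0.26, SE, Padj = 0.00474). For both genes every IDPN-4wk library was below every Control library.

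The other 5 tested type II cadherins did not pass both thresholds. Cdh11, the mesenchymal cadherin and the most counted of the type II members, was at 141, 123 and 137 CPM in Control and at 120, 99.0 and 116 CPM in IDPN-4wk libraries (log2-Fold change -0.26, Padj = 0.0645). Its groups did not overlap, but the distance between the highest IDPN-4wk and the lowest Control library was small beside the spread within groups. VE-cadherin (Cdh5), the cadherin of endothelial junctions, was at a mean of 56.4 ± 4.82 CPM in the Control rats and 56.6 ± 5.88 CPM in the IDPN-4wk rats (SD, n = 3 each, log2-Fold change 0.01, 95% interval -0.22 to 0.23, Padj = 0.972). Cdh6 and Cdh7 had negative values that did not pass, at -0.42 and -0.23. Cdh24 was higher in every IDPN-4wk library than in any Control library, at a log2-Fold change of 0.68, but missed the threshold with Padj = 0.0573. With the scaling left at library size alone or at the upper quartile, Cdh24 passed.

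**Figure D1:**
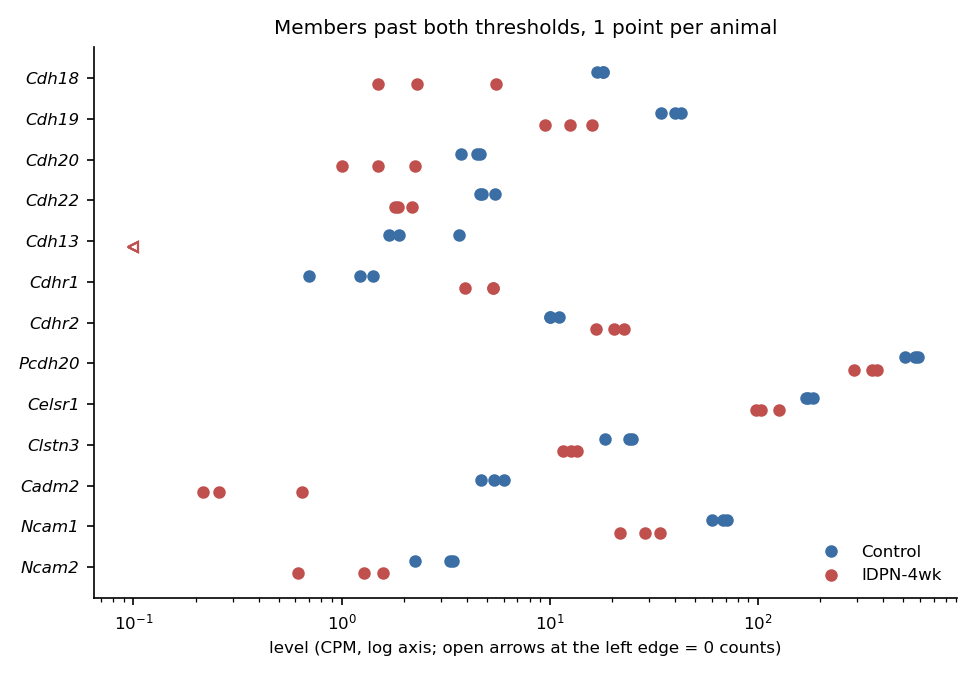
Level in CPM on a log axis of the 13 members past both thresholds, 1 point per animal, Control in blue and IDPN-4wk in red; open arrows at the left edge stand for libraries with 0 counts (the 3 IDPN-4wk libraries of Cdh13, drawn on top of each other). In each of the 13 genes the 3 Control points lie apart from the 3 IDPN-4wk points, and only Cdhr1 and Cdhr2 have the IDPN-4wk points on the right.

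None of the 4 type I cadherins tested, the core of the epithelial adherens junction, passed both thresholds. Cdh4, a type I gene removed by the filter on low counts, was not tested, and its values without that filter are given at the end. E-cadherin (Cdh1), the most counted of all 52 members, was at 561, 542 and 567 CPM in Control and at 665, 644 and 611 CPM in IDPN-4wk libraries. All IDPN-4wk libraries were above all Control libraries, but the difference was small (log2-Fold change 0.20 ± 0.07, SE, 95% interval 0.05 to 0.35, Padj = 0.0615). P-cadherin (Cdh3), another cadherin of epithelia, had a mean of 28.5 ± 3.03 CPM in the Control rats and 37.7 ± 3.40 CPM in the IDPN-4wk rats (SD, n = 3 each), and its log2-Fold change of 0.40 was under the fold threshold at Padj = 0.0311. N-cadherin (Cdh2), the cadherin of neural tissue, was at -0.25 (Padj = 0.170), with overlapping groups. Cdh15, the muscle cadherin, was near 1 CPM in the Control rats and did not pass. Summed over the 5 type I genes, Control rats had 647 ± 5.68 CPM and IDPN-4wk rats 730 ± 32.1 CPM (SD, n = 3 each). Without Cdh1 the sums were 89.9 and 89.8 CPM.

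The composition of the member transcripts differed between the groups. Cdh1 took 22.1% ± 1.33 of the counts of all 52 members in Control and 28.3% ± 1.67 in IDPN-4wk libraries (SD, n = 3 each). Pcdh20, the second most counted, went from 22.0% ± 0.918 to 14.96% ± 1.41. Such shares are relative: a gene whose own level stays the same takes a larger share when others fall.

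Cdh13, or T-cadherin, is held in the membrane by a lipid anchor and has no cytoplasmic tail for catenins. It had 57, 27 and 24 counts in the Control libraries, or 3.68, 1.89 and 1.70 CPM, and 0 counts in each of the 3 IDPN-4wk libraries. Against the floor of 3 counts per library, its level was at least 12.9-fold lower in IDPN-4wk rats (Padj = 6.20e-04 by edgeR). Since it passed the filter through the Control libraries alone, and replicate 1 of the Control group held more counts than the other two together, the size of the change is not known beyond this bound. T-cadherin is also known from endothelium, and among 6 endothelial markers tested 1 was downregulated (Flt1, log2-Fold change -0.69), with summed levels of 465 to 651 CPM in the Control and 446 to 490 CPM in the IDPN-4wk libraries. The part of vessels in the Cdh13 result was not tested.

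The cadherin-related genes were the only role with upregulated members. Cdhr1, the cadherin at the base of photoreceptor outer segments, was at 1.23, 0.70 and 1.42 CPM in Control and at 5.32, 5.36 and 3.93 CPM in IDPN-4wk libraries. Its log2-Fold change was 2.12 ± 0.33 (SE, n = 3 per group, Padj = 0.00133), the largest rise among the 41 members tested. Cdhr2, which links neighbouring microvilli in the brush borders of gut and kidney, was at 10.0, 11.1 and 9.98 CPM in Control and at 22.7, 16.7 and 20.5 CPM in IDPN-4wk libraries (log2-Fold change 0.94 ± 0.15, SE, Padj = 0.00154). Neither gene's groups overlapped, and Control libraries of Cdhr2 lay closer together than the IDPN-4wk libraries. Cdhr5, the partner of Cdhr2 in intermicrovillar links, had at most 3 counts in any library and was not tested.

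Among the protocadherins outside the cluster, Pcdh20 was the abundant one. It was at 570, 587 and 509 CPM in Control and at 352, 291 and 375 CPM in IDPN-4wk libraries, or 61.1% of the Control mean, with a log2-Fold change of -0.71 ± 0.10 (SE, Padj = 7.68e-04). The groups were far apart beside the spread within them. Pcdh9 and Pcdh17, which lie nearest to Pcdh20 among the members in the RefSeq order with 1 and 3 coding genes between, were at 0.20 (Padj = 0.518) and -0.43 (Padj = 0.0961). The delta protocadherins, known from axon growth and cell sorting in the nervous system, had 7 tested members of which none passed both thresholds. Pcdh1, the most counted of them, was at 15.7, 23.3 and 16.3 CPM in Control and at 25.9, 32.5 and 23.6 CPM in IDPN-4wk libraries. The groups lay next to each other without overlap, and the log2-Fold change of 0.57 (Padj = 0.0430) was just under the fold threshold, a log2 value of 0.58. It passed both thresholds without Control replicate 2 (0.77), without IDPN-4wk replicate 3 (0.65) and under the upper quartile and library size scalings. Pcdh18 was tighter, with 18.7 ± 0.170 CPM in the Control rats and 26.0 ± 1.36 CPM in the IDPN-4wk rats (SD, n = 3 each, log2-Fold change 0.48, Padj = 0.0112), and it too stayed under the fold threshold. Pcdh12, a protocadherin of endothelium, showed no direction because its Control libraries themselves ran from 1.49 to 8.53 CPM (log2-Fold change -0.01, and 0.96 without Control replicate 2).

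**Figure D2:**
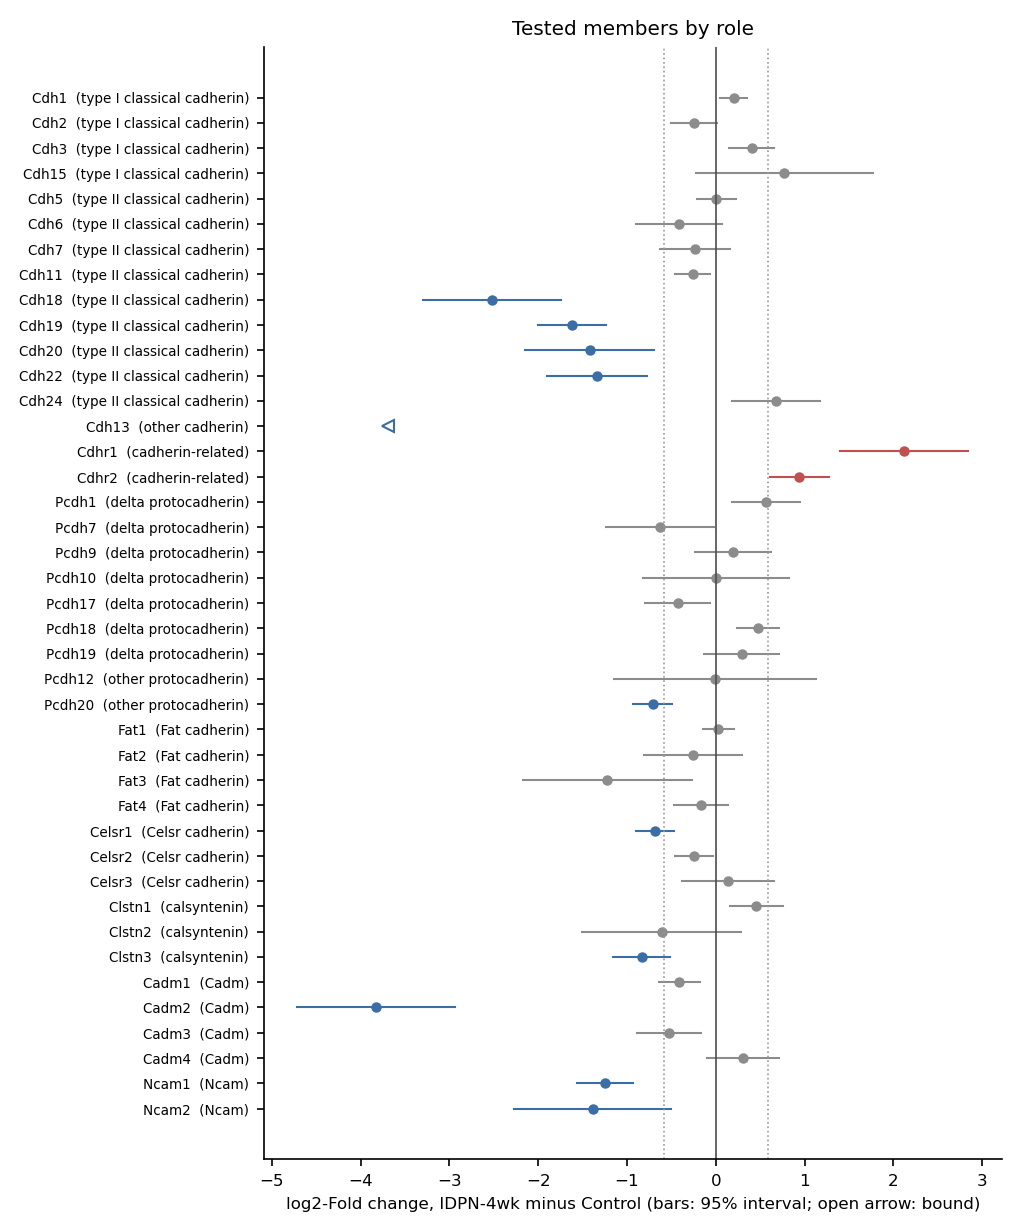
Log2-Fold change of IDPN-4wk against Control for the 41 members tested, ordered by role, with bars for the 95% interval and dotted lines at the fold threshold of 1.5 in either direction; blue marks downregulated, red upregulated and grey other members, and the open arrow gives the bound of Cdh13. The 4 blue points among the type II cadherins and both Ncam genes lie left of the dotted line, while the type I and Fat cadherins have no coloured point.

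The Celsr and Fat cadherins are the very large members that act in planar cell polarity and growth control. Celsr1, a core planar polarity cadherin that orients hair bundles in the inner ear, was at 173, 185 and 170 CPM in Control and at 103, 98.3 and 127 CPM in IDPN-4wk libraries. Every IDPN-4wk library was below every Control library, and the log2-Fold change was -0.68 ± 0.10 (SE, Padj = 7.94e-04). With the scaling left at library size alone, it was -0.58 and under the fold threshold. Celsr2 was at -0.25 (Padj = 0.0958) and Celsr3 at 0.13 (Padj = 0.733). None of 11 other planar polarity genes tested passed both thresholds, and their median log2-Fold change was -0.02. Vangl2, a membrane partner of Celsr1, was at -0.04 (Padj = 0.829), and Ankrd6, the most counted of the list, at -0.28 (Padj = 0.0416).

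None of the 4 Fat cadherins passed. Fat1, the most counted, was at 247, 299 and 267 CPM in Control and at 272, 273 and 285 CPM in IDPN-4wk libraries, with the groups intermixed (log2-Fold change 0.03, 95% interval -0.15 to 0.21, Padj = 0.838). Fat3 was lower in each IDPN-4wk library than in any Control library but rested on few counts, at 1.89 ± 0.758 and 0.797 ± 0.205 CPM (SD, n = 3 each), and missed the threshold (log2-Fold change -1.22, Padj = 0.0710). Dchs1, the Dachsous ligand of Fat4, was at -0.15 (Padj = 0.361), and Fat4 itself at -0.17 (Padj = 0.442).

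The calsyntenins are membrane proteins of neurons, with roles in synapse formation and axonal transport, and their members differed in direction. Clstn3, which induces presynaptic differentiation, was at 24.9, 24.0 and 18.5 CPM in Control and at 13.6, 12.7 and 11.5 CPM in IDPN-4wk libraries (log2-Fold change -0.84 ± 0.15, SE, Padj = 0.00284). Clstn1, which couples cargo to kinesin, was at 163, 209 and 164 CPM in Control and at 300, 220 and 215 CPM in IDPN-4wk libraries. Replicate 1 of the IDPN-4wk group stood above the others and replicate 2 of the Control group came close to the remaining IDPN-4wk libraries. Its log2-Fold change of 0.46 (Padj = 0.0385) was under the fold threshold, and was 0.28 without IDPN-4wk replicate 1 and 0.59, past both thresholds, without Control replicate 2. Clstn2 was at -0.61 (Padj = 0.325) with 1.74 CPM on average in Control.

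**Figure D3:**
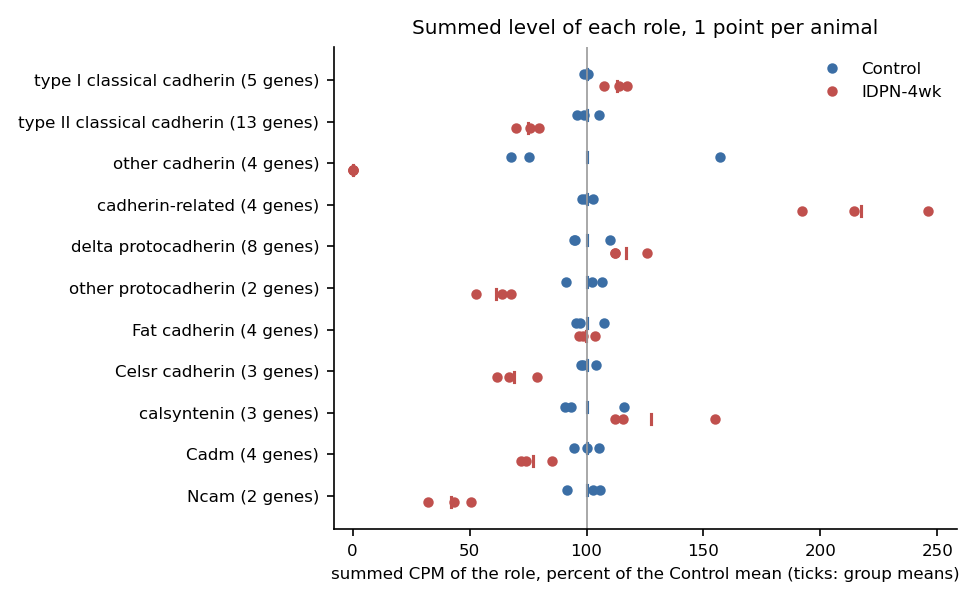
Summed CPM of each of the 11 roles in each animal, as a percentage of the Control mean, with ticks for group means; Control in blue and IDPN-4wk in red. The IDPN-4wk means are at 42.1% for Ncam, 61.4% for the other protocadherins, 69.1% for Celsr and 75.1% for type II cadherins, at 99.7% for Fat, and at 218% for the cadherin-related genes.

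The 6 members of the immunoglobulin families, 4 Cadm and 2 Ncam genes, included 3 downregulated. Cadm2, a synaptic cell adhesion molecule, was at 6.01, 4.68 and 5.38 CPM in Control and at 0.216, 0.258 and 0.644 CPM in IDPN-4wk libraries. Its level in IDPN-4wk rats was 6.95% of the Control mean, and the log2-Fold change was -3.83 ± 0.40 (SE, Padj = 1.31e-04). Without IDPN-4wk replicate 3, the highest of the 3, it was -4.45. With 93, 67 and 76 counts in Control and 3, 5 and 10 in IDPN-4wk libraries, 1 of them at the floor of 3 counts, Cadm2 passed the filter through the Control libraries, as Cdh13 did, and the size of its change is less certain than that of more counted members. The other Cadm genes did not pass both thresholds: Cadm1, the most counted, was at 59.6, 73.6 and 59.0 CPM in Control and at 44.4, 48.7 and 51.2 CPM in IDPN-4wk libraries, without overlap (log2-Fold change -0.41, Padj = 0.0194). Cadm3, a neuronal member, was at -0.53 (Padj = 0.0426), or -0.63 and past both thresholds without IDPN-4wk replicate 3, and Cadm4, known from myelinating glia, at 0.31 (Padj = 0.270).

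Ncam1, the neural cell adhesion molecule, was at 71.2, 67.9 and 60.5 CPM in Control and at 28.5, 21.9 and 34.0 CPM in IDPN-4wk libraries, or 42.3% of the Control mean. Every IDPN-4wk library was well below the lowest Control library, and the log2-Fold change was -1.25 ± 0.14 (SE, Padj = 2.15e-04). Ncam2 was at 2.26, 3.42 and 3.33 CPM in Control and at 1.58, 0.619 and 1.29 CPM in IDPN-4wk libraries (log2-Fold change -1.39 ± 0.40, SE, Padj = 0.0330). That call was the least stable of the 13: without Control replicate 2, Control replicate 3 or IDPN-4wk replicate 2 its Padj was 0.105, 0.101 and 0.0969. Polysialic acid, the sugar chain carried by Ncam1, is added by 2 enzymes. St8sia2 was downregulated (57.0 ± 8.07 CPM in the Control rats and 34.99 ± 0.898 CPM in the IDPN-4wk rats, SD, n = 3 each, log2-Fold change -0.71, Padj = 0.00119), and St8sia4 was at -0.36 (Padj = 0.507). The annotation used gives St8sia2 the gene type processed transcript rather than protein coding.

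**Figure D4:**
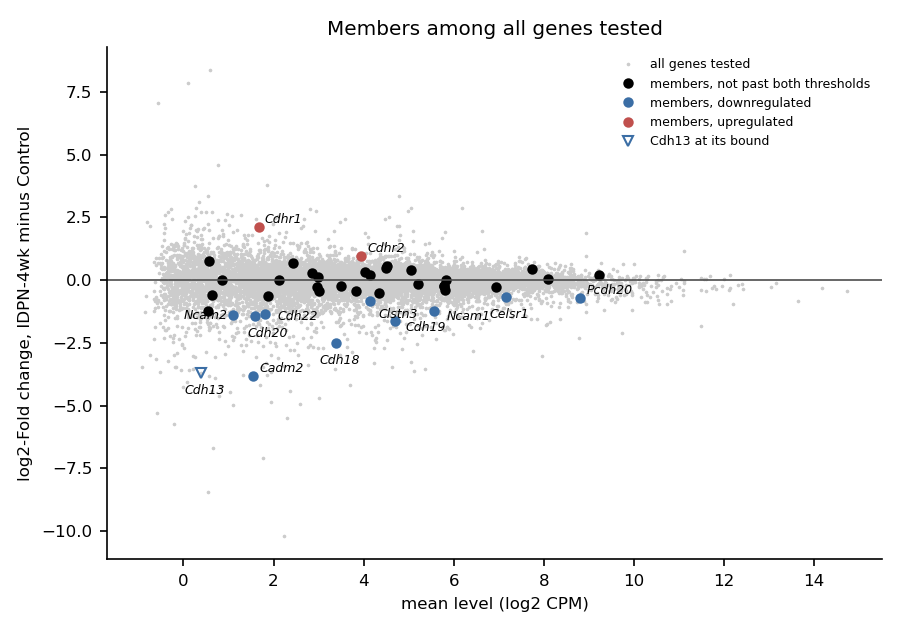
Log2-Fold change of IDPN-4wk against Control versus mean level in log2 CPM for all 14352 genes tested (grey) and the 41 members (black, or blue and red where past both thresholds), with Cdh13 drawn at its bound as an open triangle. Downregulated members are found from the low levels of Ncam2 and Cdh13 to the high level of Pcdh20, and the 2 upregulated ones are at low to middle levels.

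Over the 41 members tested, 25 had a negative and 16 a positive log2-Fold change, with a median of -0.25 beside 0.02 over all genes tested. The libraries of the groups did not overlap in 26 of the 41 members (63.4%), beside 37.8% of all genes tested. Cdh13 and Cadm2, which passed the filter through the Control libraries alone, are among the 26. Among 12 members under 5 CPM, 5 were downregulated, beside 7.92% of the genes tested at that level, but 2 of the 5, Cdh13 and Cadm2, passed the filter through the Control libraries alone, so nothing is read from that count. From 5 to 20 CPM 2 of 12 were, beside 8.55%, and over 20 CPM 4 of 17 were, beside 5.27%. Summed over all 52 genes, Control rats had 2527 ± 96.3 CPM and IDPN-4wk rats 2264 ± 105 CPM (SD, n = 3 each). That is 89.6% of the Control mean, beside 92.7% for the sum of all genes tested, a sum set by the library scaling. As shares of all counts, the members took 0.2353% to 0.2505% in the Control and 0.2243% to 0.2449% in the IDPN-4wk libraries, with overlap. The log2 levels of the members correlated at r = 0.985 to 0.994 between libraries of a group and at 0.926 to 0.959 between groups, across genes, which are not independent replicates. For comparison, 22 of 29 tested genes of the clustered protocadherin locus were downregulated (median of -2.09 on the log2 scale), as were both Cdh23 and Pcdh15. The difference between these sets and the members was not tested.

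The partners of the members inside and beside the junction were read from lists of genes. Of 9 catenins and linkers tested, 2 were downregulated and none upregulated, and the list had its median at -0.05. The 2 were those known from neurons: Ctnna2, or alpha-N-catenin, was at 7.68, 5.52 and 7.22 CPM in Control and at 0.935, 0.928 and 1.74 CPM in IDPN-4wk libraries (log2-Fold change -2.50, Padj = 3.96e-04), and Ctnnd2, a delta-catenin of neurons, was at -1.25 (Padj = 0.00119). The widely expressed Ctnnb1, Ctnna1 and Ctnnd1 were at -0.16, -0.05 and 0.07, none with Padj under 0.05, and plakoglobin (Jup), the most counted of the list, was at 0.23 (Padj = 0.0294). Of 5 desmosomal genes tested, Pkp1 was upregulated (log2-Fold change 0.59, Padj = 0.00143), just past the fold threshold, and none was downregulated. Among 5 nectins and afadin, 6 sheddase and gamma-secretase genes that cut cadherins, and 6 repressors of E-cadherin transcription, none passed both thresholds. Of these, the sheddase Adam10 was at -0.45 (Padj = 0.00421) and Zeb1 at -0.46 (Padj = 0.0354). The most counted genes of these lists and of the desmosomal list, Nectin2, Ncstn, Zeb2 and Dsp, had Padj of 0.0540, 0.0378, 0.999 and 0.183, with log2-Fold changes of 0.34, -0.26, 0.00 and 0.26.

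Markers of the cell types in the tissue also differed between the groups. Of 11 HC markers tested, 6 were downregulated (Otof, Ptprq, Myo7a, Tmc1, Calb2 and Atoh1) and none upregulated, and the summed level of the 12 in the table was from 2210 to 2426 CPM in the Control and from 1005 to 1437 CPM in the IDPN-4wk libraries, or 51.1% of the Control mean. Otof, the synaptic calcium sensor of HCs, was at 896 ± 18.2 and 393 ± 87.3 CPM (SD, n = 3 each), and Calb2, a calcium-binding protein of calyx afferents and some HCs, was at -2.16 (Padj = 3.66e-05). Single HC markers differed widely, with Gfi1 at 94.9% and Strc at 95.2% of Control, and the list had its median at -0.64 on the log2 scale. Markers of supporting cells were downregulated in 3 of 10 (Otog, Gjb6 and Otogl), and 8 of the 10 had negative values, with a median of -0.33. Their sum was 59.6% of the Control mean but lay largely in Otog, which was at 51.1% of Control. The 5 others with negative values were at 69.7% (Lfng) to 87.4% (Tecta) of Control, and the 2 with positive values, Sox9 and Hes1, were at 118% and 128% without passing the test. Of 6 markers of dark cells and melanocytes 2 were downregulated, the potassium channel gene Kcnq1 at -1.87 (Padj = 3.73e-05) and the ion cotransporter gene Slc12a2 at -1.06 (Padj = 4.11e-04). Of 8 neuronal markers 5 had negative and 3 had positive values. Snap25 (-1.44) and Rbfox3 (-1.20) were downregulated, and Uchl1, Prph and Nefh were upregulated. Prph and Nefh, with at most 12 counts in any Control library, passed the filter through the IDPN-4wk libraries, so nothing is read from their calls. In stroma 1 of 8 was downregulated (Lum at -1.42) and 1 upregulated (Col1a1 at 0.74), and among 7 macrophage markers C1qb alone was upregulated. The part of the number of HCs, supporting cells, glia or neurons in each member's result was not tested.

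**Figure D5:**
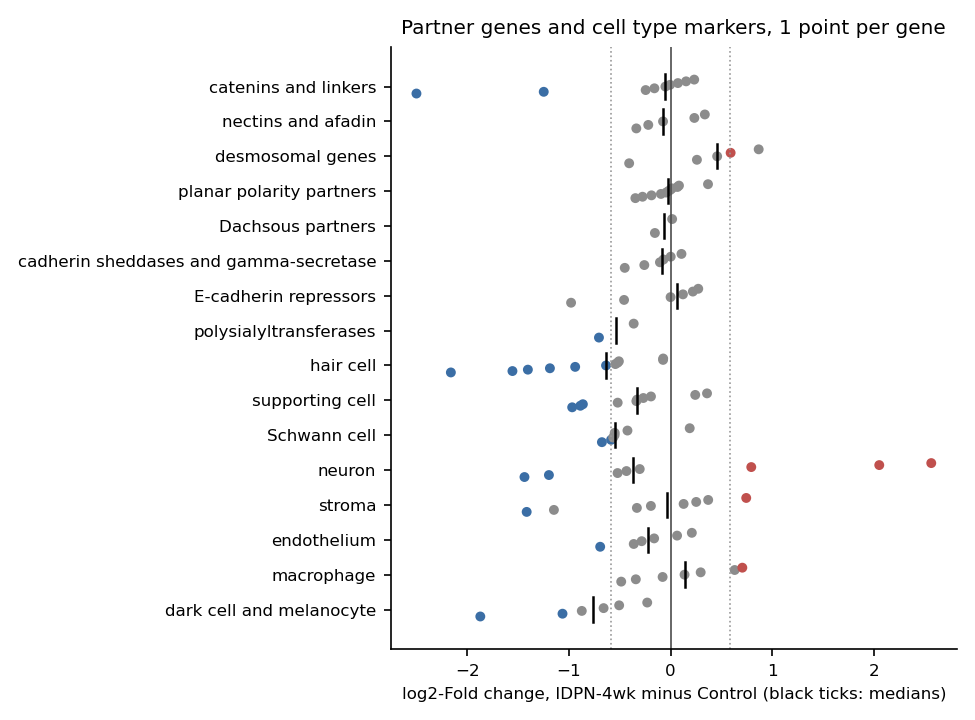
Log2-Fold change of IDPN-4wk against Control for the tested genes of 8 lists of partner genes and 8 lists of cell type markers, 1 point per gene, with black ticks for list medians and dotted lines at the fold threshold of 1.5; blue marks downregulated, red upregulated and grey other genes. The medians run from -0.77 for dark cells and melanocytes and -0.64 for HCs to 0.46 for desmosomal genes, and those of catenins, planar polarity partners and stroma are near 0.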

How the data were processed

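Total RNA of the vestibular epithelium was profiled by RNA-seq after oligo-dT priming, template switching and PCR amplification (SMART-seq2), which keeps neither strand nor molecular identifiers, so floors cover counting error only, while SEs and intervals cover the spread between animals. The authors deposited expected counts per gene, made with STAR and RSEM (versions 2.5.3a and 1.3.0 in the submitters' processing notes) on the rat build Rnor6.0. These were whole numbers and rounding changed none. RSEM divides reads that match several genes.

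Depth was 13358678 to 18561991 counts per library, and the batch label is the same for all libraries. filterByExpr removed genes with low counts (at least 10 in enough libraries and 15 in all were required). TMM scaling and glmQLFTest of edgeR 4.0.16 in R 4.3.3 were run two-sided on all 14352 genes, with Benjamini-Hochberg adjustment over all of them, after tests on simulated data. CPM are TMM-scaled and not per length, so levels were not compared between genes except as shares of reads. The SE comes from the quasi F statistic. Alternatives were other scalings, filters and thresholds, DESeq2 1.42.0, glmTreat and each library left out.

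Named members were those past both thresholds, the most counted of each role, and Cdh18; of the lists, genes past both thresholds and the most counted gene (Nefl, Pdgfra, Cldn5, Csf1r and Pmel, which did not pass, are shown only in the plot of the lists). Other list genes and members, such as Sox10, Gfi1, Strc, Lfng, Tecta, Sox9 and Hes1, were named after their values were seen. Replicate numbers follow accession order and pair nothing. Members and lists were chosen with earlier results of these data known. The sample titles carry animal codes whose prefix is the same in the 3 IDPN-4wk rats and found in no control. What it marks is not given, so it cannot be told apart from treatment. RefSeq tables of build GRCr8 gave start regions and gene order only. The deposited table gives no coordinates. In the marker lists, 1 further gene is not reported here, and Pecam1, Itgam and Dct had no row under that symbol in the table used; none of these 4 is in the counts and sums.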

Additional observations from a re-analysis of the deposited data

How the results depend on the processing

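No paired analysis was run, as the labels give no replicate numbers: those used here follow accession order. The animal codes in the titles end in LF, NM or RF, each once per group, and since the labels do not say what these letters mark, they were not used as pairs. Downregulated members numbered from 10 to 13 when 1 library was left out, beside 11 in the main analysis, 7 when a mean count of at least 50 was required (32 members tested) and 5 when glmTreat tested against the fold change itself. Of all genes tested, 5.29% to 7.53% were downregulated and 2.18% to 3.34% upregulated with 1 library left out, both shares being highest, as was the count of 13, without IDPN-4wk replicate 3, and 6.63% were downregulated with that mean count and 2.47% under glmTreat. Upregulated members numbered 2 in the main analysis, from 2 to 4 with 1 library left out, 4 with upper quartile scaling, 4 with library size alone, 6 at Padj alone, 1 with the mean count of at least 50 and 1 with glmTreat. Over all genes the upregulated share was 3.62%, 5.31%, 7.89%, 2.98% and 0.69% under these 5 settings in turn. The median log2-Fold change of the members tested, -0.25, was -0.14 with library size alone, -0.34 with no filter on low counts (48 members), -0.34 with DESeq2 and from -0.35 to -0.23 with 1 library left out. Library size alone moved the median over all genes from 0.02 to 0.13, and all genes were then split into 780 downregulated and 762 upregulated, against 950 and 444. The log2-Fold change of Fat1, 0.03, ran from -0.034 without Control replicate 1 to 0.104 without Control replicate 2, was -0.0043 without IDPN-4wk replicate 3, and did not pass in any of these. Of the 13 calls, Cdh18, Cdh19 and Ncam1 held in all 14 alternatives, Ncam2 in 9, and the others in 12 or 13. Under glmTreat, Cdh20, Cdh22, Cdhr2, Pcdh20, Celsr1, Clstn3 and Ncam2 were lost. Cdh4, a type I cadherin filtered out in the main analysis, was downregulated with no filter (log2-Fold change -3.38, Padj = 0.0479). It was also downregulated with DESeq2 (-3.53, Padj = 0.0451) and without IDPN-4wk replicate 3. Apart from what the stricter filter and fewer libraries remove by construction, the cause was not tested. Depth limits members under the floor of 3 counts.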
